A study of Macaca fascicularis with 3 samples.

Results

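ROBO2 and EPHA7 are receptors that growing axons and migrating cells use to read their surroundings. They were chosen by name, as 2 of the 38550 features measured in muscle nuclei of the cynomolgus macaque, Macaca fascicularis, and each name belonged to a single feature (ENSMFAG00000000082 for ROBO2 and ENSMFAG00000033589 for EPHA7). They were picked because earlier results of these data showed them to differ between the muscles, so their levels by muscle and by fibre are given as descriptions. The series holds 3 libraries, 1 per group: nuclei of extraocular muscle (EOM), nuclei of quadriceps femoris muscle (QFM) and whole cells of EOM. EOM moves the eye, and QFM is the large extensor of the knee. The labels give no treatment, genotype, age or sex, and the number of animals is not stated in them. The sample title of the QFM library names nuclei while its deposited files are named as cells, and it is taken as nuclei here. The median mitochondrial share of its kept barcodes was 0.19%, near the 0.46% of EOM nuclei and far from the 11.9% of EOM cells. Whether the nuclei of both muscles were prepared alike was not tested.

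ROBO2 is a transmembrane receptor of the immunoglobulin superfamily. It binds the secreted SLIT proteins, and this binding usually repels growth cones; the SRGAP proteins, ABL1, the NCK adaptors and ENAH act downstream of it. EPHA7 is a receptor tyrosine kinase that binds ephrins of the A class, such as EFNA5, which are anchored to the membranes of neighbouring cells, and contact between them often ends in repulsion. Both families guide motor axons to their muscles in development and also act on blood vessels and muscle stem cells. EOM fibres differ from limb fibres in their myosins: MYH13 is the fast chain typical of EOM, MYH15 a chain of EOM and muscle spindle fibres, MYH7 the slow chain shared with the heart, and MYH3 the embryonic chain.

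After filtering, 13975 EOM nuclei, 10525 QFM nuclei and 7111 EOM cells were kept, with medians of 2811, 4508 and 1142 UMIs (unique molecular identifiers, each standing for a captured RNA molecule). EOM and QFM nuclei shared 51 barcodes, and the cells shared none with either. A level is given in CPM, UMIs of the gene per 1000000 UMIs of the class, with an exact Poisson 95% interval in parentheses, and ratios are log2 of EOM over QFM with an exact conditional binomial 95% interval. With 1 library per group there was no replicate check and no test; all intervals cover counting error only. Fewer cells of a type and less RNA per cell cannot be told apart in sums over all nuclei.

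Myonuclei, the nuclei of muscle fibres, were taken as those with at least 10 UMIs of MYH3, MYH7, MYH13 and MYH15 together and under 2 UMIs each of PDGFRA, PTPRB and PAX7; there were 7272 in EOM and 7102 in QFM. Each was assigned to the chain with most UMIs, except 286 EOM and 5 QFM nuclei in which chains tied; the tied EOM nuclei stood at 1560.5 CPM of ROBO2 and 58.6 CPM of EPHA7, and the tied QFM nuclei held neither gene. Near-identical myosin genes can share reads, and MYH1, MYH2 and MYH8 were not used here, so the feature named MYH3 is a row name and not a statement that the fibres are embryonic. In MYH3-led nuclei of QFM this feature stood at 9680 CPM and MYH7 at 204 CPM. The 9 measured genes of a myofibre list of 12 summed to 47088 CPM in EOM myonuclei and 60730 CPM in QFM myonuclei, with none at 0. MYH13 stood at 13773 CPM in MYH13-led EOM nuclei and at 10.1 CPM in MYH3-led QFM nuclei.

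ROBO2 was abundant in EOM myonuclei and close to absent from QFM myonuclei. EOM had 87860 UMIs, a level of 3175 CPM (3154 to 3196), and QFM had 180 UMIs, a level of 4.34 CPM (3.73 to 5.02). The log2 ratio was 9.52 (9.31 to 9.74), a 732-fold higher level in EOM. Among 19076 features with at least 20 UMIs over both sums, 33.9% were at least 2-fold higher in EOM and 8.46% at least 2-fold lower, and ROBO2 held place 17 from the highest; since the gene was chosen for this contrast, nothing is read from its place. A ROBO2 UMI was found in 86.6% of EOM myonuclei (95% Clopper-Pearson interval 85.8 to 87.3) and in 2.11% of QFM myonuclei (1.79 to 2.47). With every nucleus thinned to 1000 UMIs, which left out 463 EOM and 8 QFM myonuclei, the shares were 68.6% and 0.381%.

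EPHA7 was likewise higher in EOM. Myonuclei of EOM held 2092 UMIs (75.6 CPM, 72.4 to 78.9) and those of QFM 68 UMIs (1.64 CPM, 1.27 to 2.08). The log2 ratio was 5.53 (5.18 to 5.90), a 46.2-fold higher level in EOM. In EOM, 17.5% of myonuclei held an EPHA7 UMI, against 0.521% in QFM. Over all kept nuclei, where 25.8% of 20748 features were at least 2-fold higher in EOM and 8.25% at least 2-fold lower, ROBO2 stood at 2512 CPM against 18.9 CPM and EPHA7 at 79.96 CPM against 3.83 CPM. The log2 ratios there were 7.05 (6.96 to 7.14) and 4.38 (4.18 to 4.59), smaller than in myonuclei for both genes. Some genes of other cell types were also higher in EOM myonuclei than in QFM myonuclei: PDGFRA at 11.3 against 1.42 CPM, PTPRB at 34.2 against 8.36 CPM and PTPRC, an immune gene, at 19.2 against 3.83 CPM. Of the lists of markers, the endothelial genes summed to 312 against 69.8 CPM (9 of 9 measured), the fibroblast genes to 1519 against 519 CPM (10 of 10), the immune genes to 103 against 22.1 CPM (7 of 7) and the neuronal genes to 102 against 10.7 CPM (5 of 5). The Schwann or glial genes (7 of 8) summed to 1524 against 20.7 CPM, of which XKR4 alone was 1408 against 1.04 CPM; their sum was 2421 CPM in MYH15-led and 233 CPM in MYH7-led EOM nuclei. The satellite genes (6 of 7) summed to 216 against 152 CPM. The mural genes (6 of 7) went the other way, at 386 CPM in EOM against 646 CPM in QFM. None of these genes was at 0 in the myonuclei of either muscle. The part of RNA from other cells in the levels of ROBO2 and EPHA7 was not tested. Nuclei with 10 myosin UMIs that also carried a marker (1342 in EOM, 137 in QFM) were left out of the myonuclei, and stood at 2875 and 86.6 CPM of ROBO2 and 78.7 and 15.4 CPM of EPHA7. With them included the log2 ratio of ROBO2 was 8.77.

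**Figure D1:**
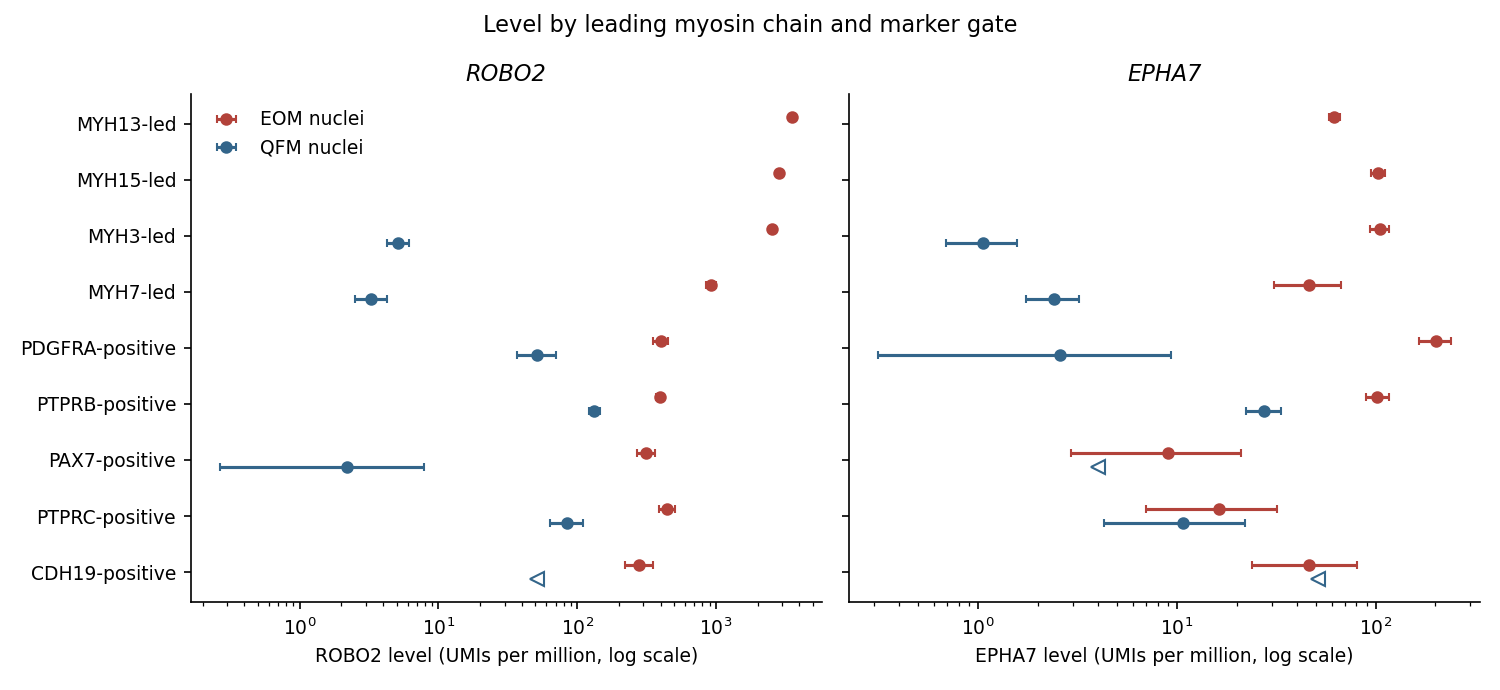
Levels of ROBO2 and EPHA7 in CPM (log axis) in each class of nuclei of EOM and QFM, with exact Poisson 95% intervals; open triangles mark the upper limit where no UMI was counted. ROBO2 is at 920.0 CPM or more in every EOM class led by a myosin chain and under 6 CPM in both QFM classes, while EPHA7 is highest in PDGFRA-positive EOM nuclei.

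Among EOM fibres, ROBO2 was highest where MYH13 led and lowest where MYH7 led. It stood at 3560.5 CPM (3532 to 3589) in 4491 MYH13-led nuclei, 2850.2 CPM (2808 to 2893) in 1406 MYH15-led nuclei, 2544 CPM (2489 to 2599) in 935 MYH3-led nuclei and 920.0 CPM (845 to 999.8) in 154 MYH7-led nuclei. None of these intervals touched another. The MYH15-led level was 0.32 below the MYH13-led level on the log2 scale, and the MYH7-led level 1.95 below it (a log2 ratio of -1.95, -2.08 to -1.83). Even the MYH7-led nuclei of EOM were far above those of QFM: 920.0 CPM against 3.29 CPM (2.50 to 4.24) in 2719 nuclei, a log2 ratio of 8.13 (7.74 to 8.54). Of these 154 EOM nuclei, 123 also held at least 3 MYH13 UMIs, and stood at 928 CPM of ROBO2. The part of RNA from other fibres in the MYH7-led level of EOM was not tested. In MYH3-led nuclei the ratio was 8.95 (8.69 to 9.22), with 5.14 CPM (4.26 to 6.14) in 4378 QFM nuclei. QFM held no nucleus led by MYH13 or MYH15, so those fibres have no QFM counterpart. Where the leading chain had to hold 70% of the myosin UMIs, 6 MYH7-led EOM nuclei were left, and the log2 ratios of their ROBO2 were 7.11 over QFM and -3.06 over MYH13-led nuclei.

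EPHA7 followed another order. It stood at 105 CPM (94.1 to 117) in MYH3-led nuclei and 103 CPM (95.2 to 112) in MYH15-led nuclei, which did not differ beyond counting error. It was lower in MYH13-led nuclei, at 62.0 CPM (58.4 to 65.9). In MYH7-led nuclei it stood at 46.3 CPM (30.8 to 67.0) from 28 UMIs, an interval that overlaps that of the MYH13-led nuclei, and with at least 30 myosin UMIs it was the higher of the pair (log2 ratio 0.18). The log2 ratio of MYH15-led over MYH13-led nuclei was 0.73 (0.59 to 0.88) for EPHA7 and -0.32 (-0.35 to -0.30) for ROBO2. The receptors thus had opposite order between these classes taken whole. Among nuclei with no MYH7 UMI the ROBO2 levels were closer, at 3452 CPM (3389 to 3516) in MYH15-led and 3588 CPM (3553 to 3623) in MYH13-led nuclei. EPHA7 stood at 123 and 65.6 CPM in these. In QFM, EPHA7 stood at 1.06 CPM (0.687 to 1.57) in MYH3-led and 2.40 CPM (1.74 to 3.23) in MYH7-led nuclei, from 25 and 43 UMIs.

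ROBO2 was unevenly spread among nuclei led by the same chain. Of the MYH13-led nuclei, 11.5% held no ROBO2 UMI, 32.7% held 1 to 3, 18.5% held 4 to 9, 22.2% held 10 to 29 and 15.1% held 30 or more, and the highest nucleus held 179. The nuclei with 30 or more were deeper, with a median of 5865 UMIs against 2436 for those with 1 to 3. The level in CPM went with depth as well: with MYH13-led nuclei in 3 equal bins from shallow to deep, ROBO2 stood at 2330.5, 3065 and 4118 CPM, whereas EPHA7 stood at 62.7, 55.2 and 65.6 CPM. Of the MYH7-led nuclei, 30.5% held no ROBO2 UMI, 53.2% held 1 to 3 and 2.60% held 30 or more. In QFM no MYH7-led nucleus held more than 1 ROBO2 UMI, and 4 MYH3-led nuclei held 4 or more.

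**Figure D2:**
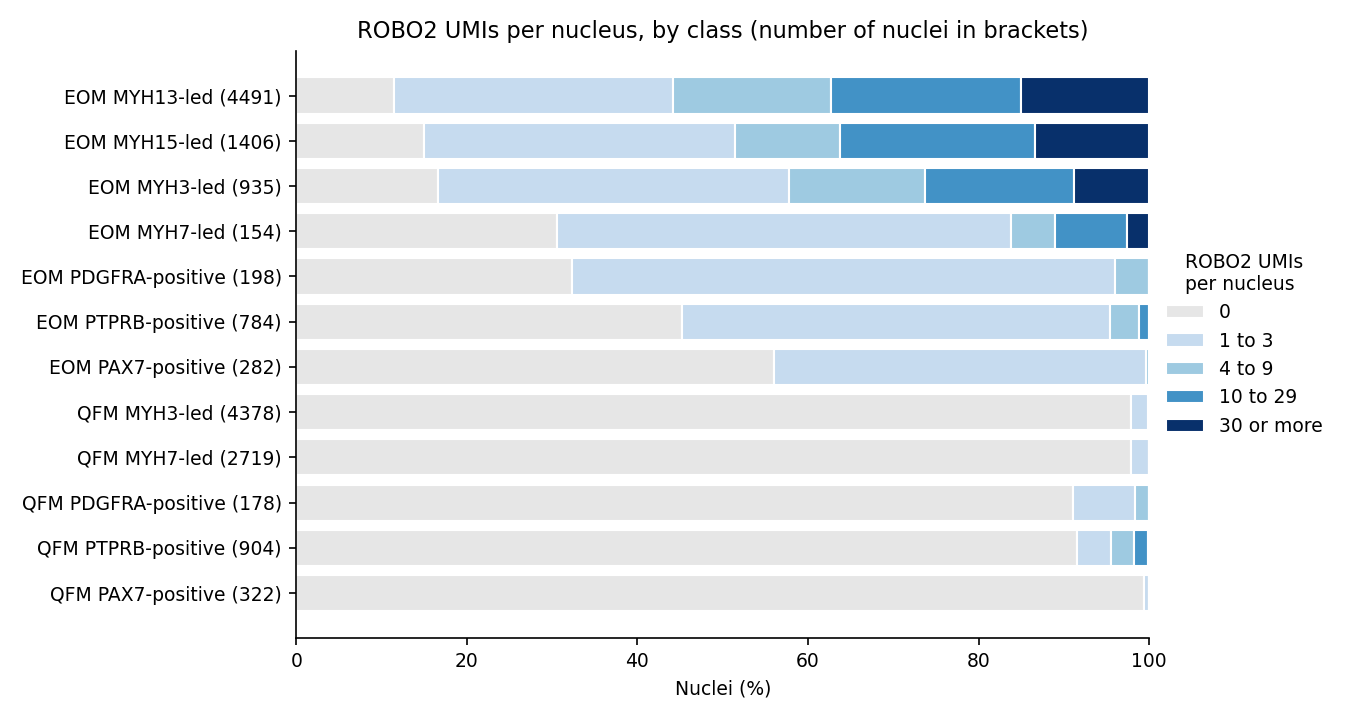
Share of nuclei (percent) by the number of ROBO2 UMIs in the nucleus, for classes of EOM and QFM nuclei. In EOM, 15.1% of MYH13-led nuclei hold 30 or more UMIs, while in QFM 97.9% of MYH3-led nuclei hold none.

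A split by MYH7, chosen after the levels had been seen, separated EOM nuclei led by MYH15 or MYH3. In the 318 MYH15-led nuclei with at least 3 MYH7 UMIs ROBO2 stood at 968 CPM (916 to 1021), against 3452 CPM (3389 to 3516) in the 800 with none, a log2 ratio of -1.83 (-1.92 to -1.75). EPHA7 stood at 38.5 CPM (28.9 to 50.4) and 123 CPM (112 to 136), a log2 ratio of -1.68 (-2.12 to -1.26). Both receptors were thus lower together where the slow chain was also present. MYH3-led nuclei showed the same, with ROBO2 at 964 CPM in 159 nuclei with MYH7 and 2966 CPM in 551 without, and EPHA7 at 38.1 CPM and 130 CPM. MYH13-led nuclei showed less: ROBO2 stood at 2860 CPM in 138 nuclei with at least 3 MYH7 UMIs and 3588 CPM in 3177 with none, and EPHA7 at 63.8 CPM and 65.6 CPM. Median depths of the split MYH15-led nuclei were 4026.5 and 3900.5 UMIs.

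Over all EOM myonuclei the levels went with the number of MYH7 UMIs. ROBO2 stood at 3460.1 CPM in 4681 nuclei with no MYH7 UMI, 3388 CPM with 1 to 2, 1585 CPM with 3 to 9 and 813 CPM (759 to 869) in 209 nuclei with 10 or more. EPHA7 stood at 84.3, 70.2, 46.8 and 38.8 CPM in the same order. MYH13 itself went down along this order too, from 11192 to 1780 CPM, so more MYH7 and less MYH13 cannot be told apart here. In QFM, ROBO2 stood at 5.32, 5.08, 5.24 and 3.28 CPM in the same classes, so it was lowest with 10 or more MYH7 UMIs there too. The interval of that class (2.51 to 4.20) just overlapped that of QFM nuclei with no MYH7 UMI (4.10 to 6.78). EPHA7 in QFM stood at 1.15, 0.451, 5.24 and 2.22 CPM, with no steady order.

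**Figure D3:**
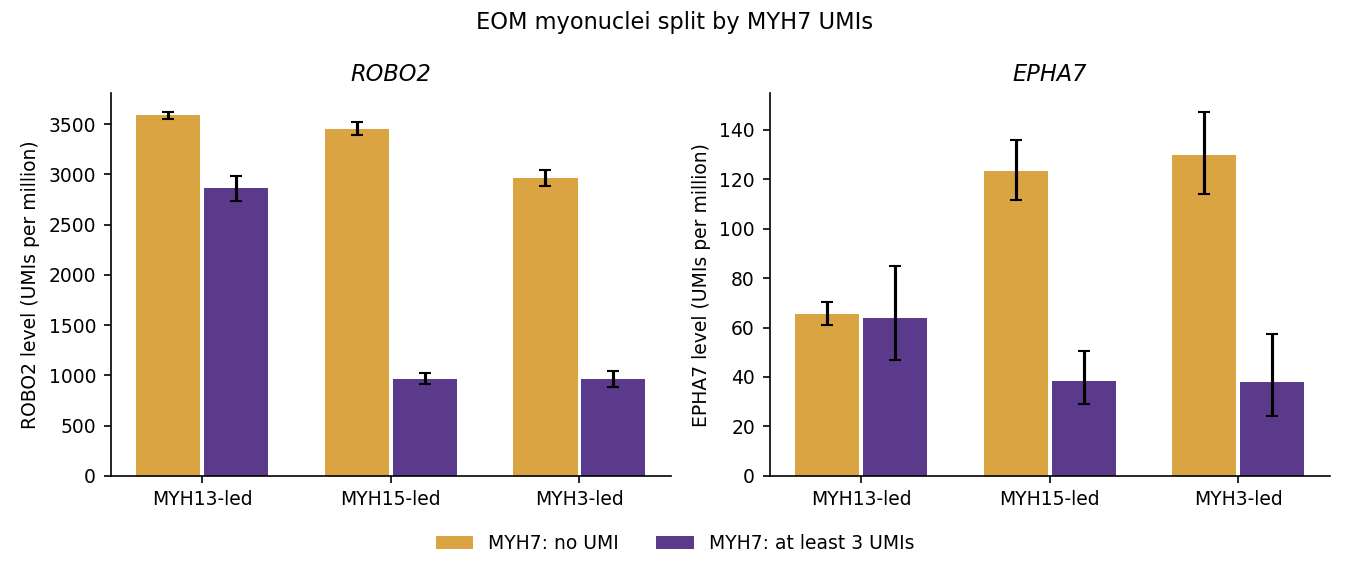
Levels of ROBO2 and EPHA7 (CPM, exact Poisson 95% intervals) in EOM nuclei led by MYH13, MYH15 or MYH3, with at least 3 UMIs of MYH7 or none. Both genes are lower with MYH7 in MYH15-led and MYH3-led nuclei, for example ROBO2 at 968 against 3452 CPM, and EPHA7 does not differ beyond counting error in MYH13-led nuclei.

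Whether the same nuclei held both receptors was asked after thinning to 1000 UMIs. In MYH15-led nuclei an EPHA7 UMI was found in 12.5% (9.98 to 15.4) of those above the class's median ROBO2 count and in 5.41% (3.93 to 7.25) of the others. In MYH3-led nuclei the shares were 11.1% (8.08 to 14.6) and 6.99% (4.91 to 9.58), and in MYH13-led nuclei 4.51% (3.61 to 5.57) and 5.09% (4.23 to 6.06). In MYH7-led nuclei they were 1.82% (0.046 to 9.72) of 55 nuclei and 6.25% (2.33 to 13.1) of 96. Among these classes the intervals did not overlap in MYH15-led nuclei only, where the receptors went together. The difference between classes was not tested. These shares were not split by MYH7, and both receptors were lower in MYH15-led nuclei with MYH7. Nuclei near the neuromuscular junction, taken as those with at least 2 UMIs of acetylcholine receptor subunit genes (CHRNA1, CHRND, CHRNE or CHRNG), were not higher in ROBO2. In EOM, 277 such nuclei stood at 2568 CPM (2484 to 2653) for ROBO2, against 3234 CPM in those with no receptor UMI, and at 89.9 CPM (74.9 to 107) against 75.5 CPM for EPHA7. In QFM, 43 such nuclei held 2 ROBO2 UMIs and no EPHA7 UMI, which allows up to 10.04 CPM of EPHA7.

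Outside the fibres, nuclei were gated by at least 2 UMIs of a marker, more than of the other markers, and under 10 myosin UMIs. PDGFRA marks fibro-adipogenic progenitors and fibroblasts, PTPRB endothelial cells and PAX7 satellite cells, the stem cells of muscle. The gated nuclei carried the rest of their own marker lists: endothelial genes summed to 9410 CPM in EOM PTPRB-positive nuclei and 12251 CPM in QFM, fibroblast genes to 15715 and 22076 CPM in PDGFRA-positive nuclei, and satellite genes to 4595 and 3765 CPM in PAX7-positive nuclei. Myofibre genes were also present in them, at 5252 CPM in EOM PTPRB-positive nuclei and 2130 CPM in QFM. Of EOM nuclei with at least 2 PAX7 UMIs, 74.7% also held 10 or more myosin UMIs and so fell outside the gate, against 13.6% in QFM.

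In EOM, ROBO2 stood between 280 and 448 CPM in every gate, those of immune and Schwann-like nuclei included. It was at 399 CPM (349.9 to 453) in 198 PDGFRA-positive nuclei, 395 CPM (369 to 422) in 784 PTPRB-positive nuclei and 315 CPM (270 to 365) in 282 PAX7-positive nuclei. Immune nuclei (PTPRC-positive, 233) stood at 448 CPM (391 to 511) and Schwann-like nuclei (CDH19-positive, 107) at 280 CPM (220 to 353). The share of nuclei with a ROBO2 UMI was 67.7% with PDGFRA, 54.7% with PTPRB and 44.0% with PAX7, against 52.8% in immune nuclei, with median depths of 2900.5, 2624, 1847 and 1953 UMIs. Per 100 myosin UMIs in the same nuclei, ROBO2 came to 20.6, 18.8 and 11.4 in the 3 gates and 18.5 in immune nuclei, beside 16.1 in myonuclei without MYH7. The part of fibre RNA in these EOM levels was not tested, so they are not read as expression in those cells. The gates differed beyond counting error, for example PTPRB-positive and immune nuclei from PAX7-positive nuclei. In EOM nuclei with under 3 myosin UMIs, ROBO2 stood at 279 CPM in 67 PTPRB-positive nuclei and 368 CPM in 27 PAX7-positive nuclei. That was 38.3 and 33.3 per 100 myosin UMIs, a ratio that the gate itself moves up. The 3759 EOM nuclei in no gate stood at 500.3 CPM of ROBO2 and 93.8 CPM of EPHA7, and the 1688 of QFM at 27.7 and 2.19 CPM.

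QFM has almost no ROBO2 in its fibres, and its gates ran over a wider range. ROBO2 stood at 133 CPM (121 to 145) in 904 PTPRB-positive nuclei, 51.5 CPM (36.8 to 70.2) in 178 PDGFRA-positive nuclei and 84.3 CPM (63.5 to 110) in 174 immune nuclei. In 322 PAX7-positive nuclei it stood at 2.18 CPM (0.264 to 7.89), from 2 UMIs. The log2 ratios of EOM over QFM were 1.57 (1.41 to 1.73) with PTPRB, 2.95 (2.47 to 3.47) with PDGFRA and 7.17 (5.30 to 10.2) with PAX7. With called doublets kept the PAX7 ratio was 5.54, and under 3 myosin UMIs the PDGFRA ratio was 3.61. PTPRB-positive QFM nuclei held the most per nucleus of the gates there, 0.532 UMIs on average against 0.316 in immune nuclei: 25 held 4 to 9 UMIs, 15 held 10 to 29 and 1 held 30 or more.

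EPHA7 covered a wide range over the gates of EOM. It stood at 200.4 CPM (166 to 240) in PDGFRA-positive nuclei and 102 CPM (89.1 to 116) in PTPRB-positive nuclei. In PAX7-positive nuclei it was at 9.0 CPM (2.92 to 21.0) from 5 UMIs, and in immune nuclei at 16.2 CPM (7.0 to 31.9) from 8 UMIs. The level in PDGFRA-positive nuclei was above that of every class of myonuclei, and the level in PAX7-positive nuclei was below all of them. The immune level was below them too, with an interval that reaches into that of the MYH7-led nuclei. In PDGFRA-positive QFM nuclei it stood at 2.58 CPM (0.312 to 9.31) from 2 UMIs in 1 nucleus, a log2 ratio of 6.28 (4.40 to 9.34), or 4.64 with at least 4 PDGFRA UMIs. In PTPRB-positive QFM nuclei it stood at 27.4 CPM (22.2 to 33.3), a log2 ratio of 1.90 (1.55 to 2.26), and no PAX7-positive QFM nucleus held it, which allows up to 4.03 CPM.

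Clusters of all nuclei were made within each library after the data had been seen. They use the same counts as the gates, and neither the receptors nor the gate markers were kept out of them. They are thus no separate check of the gates. The largest fibroblast-like cluster of EOM (2205 nuclei, led by HTR2C, AOX1 and NOX4) held 792 EPHA7 UMIs, 19.97% of the library's, at 134 CPM. Its EPHA7 came to 5.13 per 100 myosin UMIs, the 3 endothelial-like clusters to between 3.03 and 4.56, and the mural-like cluster led by STAC, the larger satellite-like cluster and the 3 immune-like clusters to between 0.31 and 0.71. Another cluster of EOM (72 nuclei) was fibroblast-like by its marker score only, with TENM2, NRP2, NTRK3, CLDN1 and ITGB4 among its leading genes. It was at 19.4 CPM (5.28 to 49.7), or 0.79 per 100 myosin UMIs. A Schwann-like cluster (64 nuclei, led by GRIK2) was at 101 CPM (56.4 to 166), or 3.11. A small cluster of 33 EOM nuclei led by THBS4, DCC and MKX, genes of tendon among them, had the highest EPHA7 of any EOM cluster, 305 CPM (211 to 426). Fibre clusters of like ROBO2 differed in EPHA7: a cluster led by CCDC60 and SLC28A3 stood at 32.9 CPM of EPHA7 and 4215 CPM of ROBO2, and a cluster led by KCNIP4 at 97.8 CPM and 4847 CPM. In the 767 nuclei of a neuronal-like cluster (led by GRIA2 and SNAP25, median 877 UMIs) ROBO2 stood at 1455 CPM, or 13.6 per 100 myosin UMIs.

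In QFM, most of the little ROBO2 present came from 1 endothelial-like cluster, and within it from a minority of the nuclei. This cluster of 251 nuclei, led by ENPP3, NRXN3, ACKR1, WDR72 and PLVAP, held 610 of the library's 1021 ROBO2 UMIs (59.7%), at 489 CPM (451 to 530), and 103 of its 207 EPHA7 UMIs (49.8%), at 82.6 CPM (67.5 to 100.2). A ROBO2 UMI was found in 81 of its nuclei (32.3%) and an EPHA7 UMI in 64 (25.5%). The other endothelial-like clusters of QFM stood at 10.4, 5.24 and 0 CPM for ROBO2. ACKR1 and SELP are genes of postcapillary venules and veins, and were used, after these values had been seen, to divide PTPRB-positive nuclei. In QFM, 156 nuclei with at least 2 UMIs of ACKR1 and SELP stood at 488 CPM (440 to 540) for ROBO2, against 18.9 CPM (14.0 to 24.9) in 697 with none, and 31.4% against 2.58% held a UMI. EPHA7 stood at 66.4 CPM (49.5 to 87.3) against 12.5 CPM (8.59 to 17.5). The log2 ratios were 4.69 (4.26 to 5.15) for ROBO2 and 2.41 (1.75 to 3.09) for EPHA7; thinned to 1000 UMIs, that of ROBO2 was 3.83.

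Nuclei of the arterial genes BMX and GJA5 did not share this level. In QFM, 67 PTPRB-positive nuclei with at least 2 UMIs of them and none of ACKR1 or SELP held 4 ROBO2 UMIs (11.5 CPM, 3.14 to 29.5) and 6 EPHA7 UMIs (17.3 CPM). The 32 such nuclei of EOM stood at 250 CPM (165 to 363) for ROBO2 and 55.5 CPM (20.4 to 121) for EPHA7. In EOM the ACKR1 and SELP division went the same way: ROBO2 stood at 707 CPM (630.2 to 791) in 137 nuclei against 294 CPM (268 to 323) in 577, a log2 ratio of 1.26 (1.05 to 1.48). EPHA7 stood at 153 CPM (118 to 194) against 79.4 CPM (66.0 to 94.7) there, a log2 ratio of 0.94 (0.49 to 1.39). The 315 CPM of EOM PAX7-positive nuclei lies within the interval of the EOM endothelial nuclei without these genes, but under that of the nuclei with them.

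**Figure D4:**
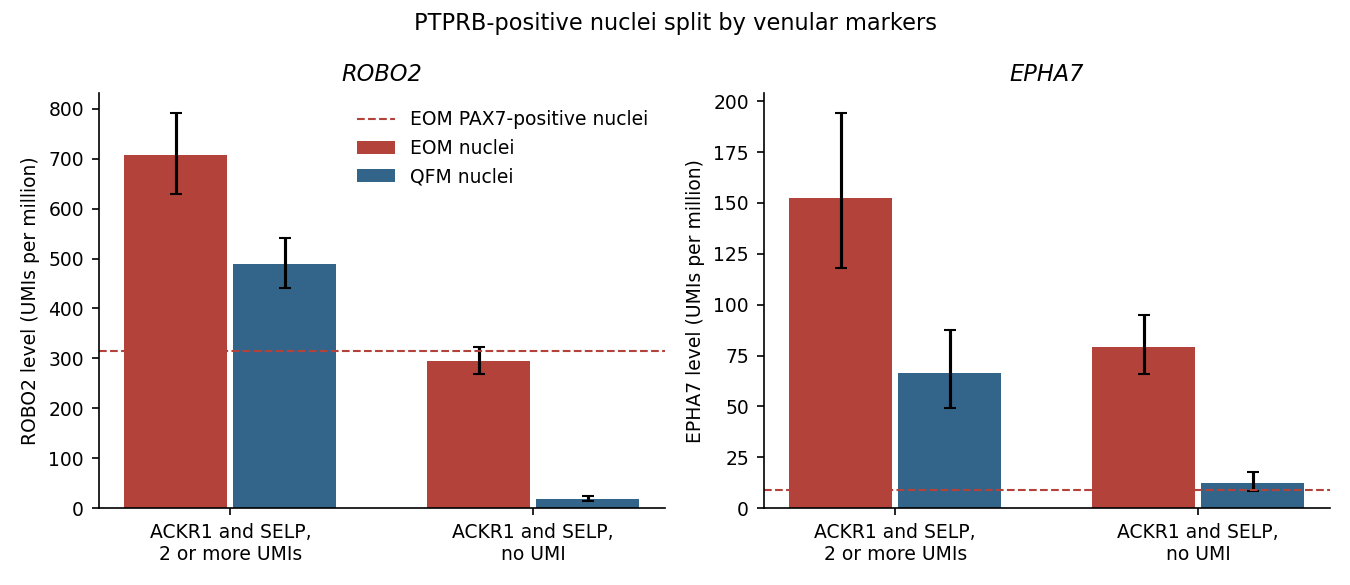
Levels of ROBO2 and EPHA7 (CPM, exact Poisson 95% intervals) in PTPRB-positive nuclei of EOM and QFM, with at least 2 UMIs of ACKR1 and SELP or none. The dashed line is the level in EOM PAX7-positive nuclei. QFM nuclei with ACKR1 and SELP stand at 488 CPM of ROBO2 and those with none at 18.9 CPM.

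Whole cells of EOM, a preparation that long muscle fibres mostly escape, held little of either receptor. ROBO2 had 46 UMIs (4.76 CPM, 3.49 to 6.35) and EPHA7 had 32 UMIs (3.31 CPM, 2.27 to 4.68) over 7111 cells. Only 6 cells had 10 or more myosin UMIs, and they held no UMI of either gene, which allows up to 190 CPM of each. A fibre-like cluster of 33 cells led by MYL1, CKM and TCAP held none either, which allows up to 71.2 CPM. For ROBO2 both limits lie under the level of every chain-led class of EOM nuclei. For EPHA7 neither limit lies under that of the MYH7-led nuclei. These cells are few, and the reason for the difference from nuclei was not tested. PDGFRA-positive cells (27) held 1 UMI of each gene, and PTPRB-positive cells (323) held 2 of ROBO2 and 5 of EPHA7. A cluster of 65 cells led by THBS4, CHAD and KERA held 6 of the 32 EPHA7 UMIs, at 74.3 CPM, and a cluster of 548 cells led by ACKR1, MMRN1 and PLVAP held 8, at 8.58 CPM, with 5 ROBO2 UMIs. Divided by ACKR1 and SELP, 87 PTPRB-positive cells with these genes held 2 ROBO2 UMIs and 1 EPHA7 UMI (4.6 CPM, 0.117 to 25.7), and 211 with none held 0 and 4 (10.7 CPM, 2.91 to 27.3), so no difference was detectable at this depth.

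The other genes of the 2 pathways were taken from lists of 25 each. The lists were chosen with earlier results of these data known, so their counts describe them only. Of the SLIT and ROBO list, which also holds netrin genes, 19 had a feature and at least 20 UMIs in myonuclei: 13, ROBO2 among them, were at least 2-fold higher in EOM, 1 was lower and 5 were within 2-fold, with a median log2 ratio of 2.73 against 0.43 over all 19076 features. Of the Eph and ephrin list 19 were measured: 15, with EPHA7, were higher, 1 lower and 3 within, with a median of 1.97. The shares of features beyond 2-fold, 33.9% and 8.46%, are the background for both lists. Some genes of other cell types were higher in the same EOM myonuclei, such as PDGFRA (11.3 against 1.42 CPM) and PTPRB (34.2 against 8.36 CPM). The mural list summed lower there (386 against 646 CPM). The part of RNA from other cells in the ratios of the listed genes was not tested. Scaled by the median ratio, which moves every ratio down by 0.24, the counts were 13 and 1 for both lists, with medians of 2.49 and 1.73.

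Among the ligands and fellow receptors of ROBO2 in myonuclei, SLIT3 had a level of 179 CPM on the EOM side and 23.2 CPM on the QFM side (log2 ratio 2.95) and SLIT2 at 46.3 and 3.61 CPM (3.68). ROBO1, the closest relative of ROBO2, stood at 93.4 and 7.32 CPM (3.67). Counts were not scaled by gene length, so levels of different genes are not ranked on this scale. The netrin receptors DCC, UNC5C and UNC5D had ratios of 3.42, 3.99 and 2.64, and the ligands NTN1 and NTN4 2.78 and 1.85. Downstream, SRGAP1 had a ratio of 2.73, while the kinase ABL1 (0.20) and the adaptors NCK1 (0.56) and NCK2 (0.65) were within 2-fold. ENAH, which builds actin filaments at the leading edge, was the lower gene of the list, at 119 CPM against 569.6 CPM in QFM (-2.26). NELL2 (2.92), UNC5B (3.51) and FLRT3 (0.85) were the other members that reached 20 CPM in some class. SLIT3 was highest with PDGFRA, 1259.8 CPM for EOM and 831 CPM for QFM, so SLIT3 stood high in gated fibroblast nuclei of both muscles.

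Among the Ephs, EPHA3 had levels of 125 and 9.39 CPM in myonuclei of EOM and QFM (3.73) and EPHB1 at 183 and 46.7 CPM (1.97). EPHB2 (3.85), EPHA4 (2.88) and EPHB4 (2.14) were higher in EOM as well, as were EPHA2 (1.75), EPHA5 (3.12) and EFNA4 (1.39), while EPHB6 (0.59), EFNB1 (0.51) and EFNB2 (-0.37) were within 2-fold and VAV2, an exchange factor, was lower (-1.19). The ephrin EFNA5, a ligand of EPHA7, stood at 42.8 and 21.2 CPM (1.02) in myonuclei and at 79.2 and 477 CPM with PDGFRA, where QFM was the higher muscle. EPHA3 was highest with PDGFRA, 1581 CPM for EOM and 668 CPM for QFM. In PTPRB-positive nuclei EPHA4 stood at 408 and 317 CPM, EPHB4 at 181 and 136 CPM and the ephrin EFNB2 at 166 and 257 CPM. VAV3, a relative of VAV2, stood at 495 CPM in MYH7-led and 93.4 CPM in MYH13-led EOM nuclei, the reverse of the order of ROBO2. UNC5D had the same reversed order, 344 against 44.1 CPM, and was highest with PAX7, 1116 CPM for EOM and 896 CPM for QFM. ROBO1 also stood high with PAX7, at 1053 CPM for EOM and 274 CPM for QFM.

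**Figure D5:**
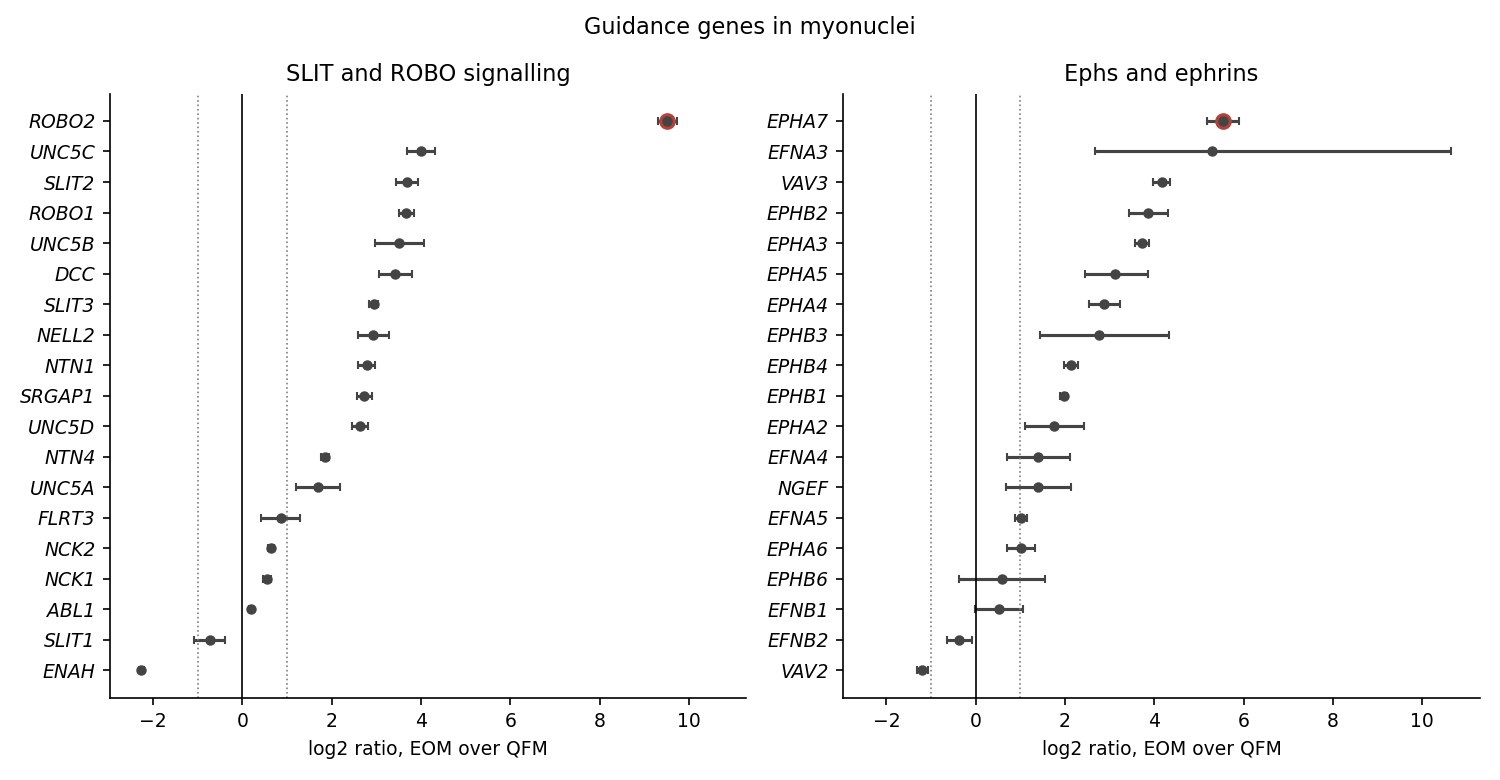
Log2 ratio of EOM over QFM in myonuclei for the measured genes of the SLIT and ROBO list and of the Eph and ephrin list, with 95% conditional binomial intervals; dotted lines mark 2-fold. ROBO2 stands at 9.52 and EPHA7 at 5.53, and ENAH (-2.26) and VAV2 (-1.19) are the genes below -1.

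The features whose levels over 15 classes of nuclei (9 of EOM) ran most like those of ROBO2, by Pearson's r of log2(CPM + 5) among 6923 features, were CDH18 (r 0.94), STK39 (0.92), SNX27 (0.92) and ZNF385C (0.91). For EPHA7 they were ROBO2 (0.84), CDH18 (0.84), IQCA1 (0.83), ANGPT2 (0.82) and SLCO1A2 (0.81). The likeness was not mutual in rank, as EPHA7 held place 48 among the features most like ROBO2. The classes share libraries, so these values describe the pattern over classes. Over the 9 EOM classes alone, r between ROBO2 and EPHA7 was 0.35, so their likeness over all classes rests on the difference between the libraries.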

How the data were processed

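Nuclei of EOM and QFM and cells of EOM were analysed, 1 library each. The authors deposited raw UMI counts per gene and barcode, which per the submitters' processing notes came from Cell Ranger 7.2.0 with Seurat 5.2.1; the genome build is not given in the sources used here. Totals were 61618999 and 72590186 UMIs in EOM and QFM nuclei and 12248405 in EOM cells. Barcodes with at least 200 genes and 500 UMIs and at most 10% mitochondrial UMIs (20% in cells) were kept, and doublets called by Scrublet (expected 6%) removed: 2498 EOM nuclei, 1866 QFM nuclei and 188 cells. Counts were summed per class as CPM; intervals are exact Poisson, Clopper-Pearson and conditional binomial at 95%, and 0 counts are taken as up to 3. The ratio step was tested on simulated data. Thinning to 1000 UMIs used seed 1. Clusters came from scanpy 1.11.5 (2000 variable genes, 30 components, 15 neighbours, Leiden resolution 1), in Python 3.11.15 with numpy 2.4.6 and scipy 1.17.1. Pathway genes are named from 20 CPM in any class, and up to 5 features of highest r for each receptor; 1 of these is not reported here. Of the features of the cells, 723 were renamed from RefSeq gene names (assembly T2T-MFA8v1.1); MYH7 was not used there, nor a gate on NOTCH3 in nuclei. The genes, lists and gates were chosen with earlier results of these data known.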

Additional observations from a re-analysis of the deposited data

How the results depend on the processing

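Of 112 values of 25 ratios recomputed under alternatives, 85 moved by less than their interval, 26 moved further and 1 reversed; 10 moved by over 1.5-fold. The reversed value was EPHA7 in MYH7-led over MYH13-led EOM nuclei, at 0.18 with at least 30 myosin UMIs. ROBO2 ratios under that gate were -0.46 for MYH15-led and -2.12 for MYH7-led over MYH13-led nuclei, 8.70 for MYH7-led EOM over QFM and -1.90 for the MYH7 split of MYH3-led nuclei, and EPHA7 in MYH15-led over MYH13-led nuclei was 0.90. With the leading chain at 70% or more of the myosin UMIs, ROBO2 was at -0.17, -3.06 and 7.11 (8 UMIs from 6 EOM nuclei in the latter 2) and EPHA7 at 0.55. With median ratio scaling ROBO2 was at 6.87 over all nuclei, 9.28 in myonuclei, 8.69 in MYH3-led nuclei, -0.28 in MYH15-led and -2.08 in MYH7-led over MYH13-led nuclei. Thinned to 1000 UMIs, ROBO2 was at 6.60 over all nuclei, -0.27 and -2.11 for the same pairs, 1.74 with PTPRB, 3.83 in the QFM ACKR1 and SELP split and -1.99 in the MYH7 split of MYH15-led nuclei; EPHA7 was at 5.95 in myonuclei and 5.39 in MYH7-led nuclei. With every nucleus of at least 10 myosin UMIs, markers or not, ROBO2 was at 8.77. Under 3 myosin UMIs it was at 3.61 with PDGFRA and 1.18 with PTPRB, and with called doublets kept the MYH7 split of MYH3-led nuclei was -1.35. The cause was not tested. EPHA7 with PAX7 had no QFM UMI and is in none of these, and PDGFRA-positive EPHA7 (thinned, and under 3 myosin UMIs) and PAX7-positive ROBO2 (thinned) gave no value. The MYH7 split, the ACKR1 and SELP split and the clusters were added after seeing the data. No paired analysis was possible because each group holds 1 library. With 1 library a muscle, no ratio can be told apart from a difference between animals or preparations.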
